A study of Mus musculus with 12 samples.

Results

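The genes examined were 10 genes of regulatory T cells and of the interleukin-10 (IL-10) system, chosen by symbol from the 25070 genes of a mouse skin RNA-sequencing table: Foxp3, Ikzf2, Il2ra, Ctla4, Icos, Tnfrsf18, Tnfrsf4, Il10, Il10ra and Il10rb. All 10 were found, each in 1 entry. The study compared skin biopsies of mice after a first and after repeated tick infestation, in total RNA of 12 libraries labelled 4 days after tick bite. The groups were naive skin labelled as not bitten (n = 2), bitten skin of a 1st exposure (n = 3), bitten skin labelled ticks 2x (n = 3), bitten skin labelled ticks 3x (n = 3), and bitten skin labelled saliva immune (n = 1). Nothing used here states the tick species, the strain, sex and age of the mice, or how saliva immunity was raised. Nor is it stated that each library came from a separate mouse, so p-values measure only the spread between these samples, which may be technical.

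Regulatory T cells are T cells that restrain other immune cells. They are defined by the transcription factor Foxp3, depend on interleukin-2 taken up through the high-affinity receptor chain Il2ra, and carry Ctla4, which competes for the costimulatory ligands on antigen-presenting cells. IL-10 is a cytokine that dampens inflammation. It is made by regulatory T cells but also by other T cells, macrophages and other leukocytes, and it signals through a receptor of the chains Il10ra and Il10rb. In healthy skin regulatory T cells sit mostly around hair follicles.

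None of the 10 genes passed an adjusted p of 0.05 in any of 7 comparisons between groups. Il10 was lowest after a first exposure, at 0.0558 to 0.431 CPM, against 3.12 and 6.15 CPM in naive skin, and was above 2 CPM in 5 of 6 libraries of repeated exposure. In repeat exposure (2x and 3x together, n = 6) over first exposure all 10 genes had higher fitted levels, and Il10, Icos, Ctla4 and Il10ra by more than 1 on the log2 scale. Their median log2 fold change was 0.70, beside 0.76 for a list of T cell markers. Medians of other marker lists ran from -2.74 (hair follicle) to 1.33 (mast cell and basophil), with 0.92 for macrophage markers.

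The titles fall into a series numbered 4 and a series numbered 6. The first exposure and saliva immune libraries were in series 4 and the naive, 2x and 3x libraries in series 6, so exposure number and title series cannot be told apart where first exposure is compared with naive, 2x or 3x skin. The comparison of all bitten libraries with naive skin also spans both series. Saliva immune skin set beside naive, 2x or 3x skin differs in title series as well. Values are CPM, the reads of a gene scaled to the reads of its library, and depth was estimated at 12.5 M to 29.8 M reads per library, which puts 3 reads at 0.101 to 0.24 CPM. The 6 keratinocyte markers had a mean log2(CPM + 1) between 8.99 and 10.69 in bitten skin and 9.36 and 10.14 in naive skin, high in every library. The 15 hair follicle markers found differed far more between libraries of the same group, with means of 7.43 and 1.04 in naive skin, 9.01, 9.30 and 1.83 after first exposure, 8.82, 2.74 and 0.83 in 2x skin, 5.08, 6.58 and 0.89 in 3x skin and 0.80 in saliva immune skin.

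The transcripts were scarce to moderate in whole skin. Divided by exon length and averaged over the 11 libraries other than saliva immune, levels were 12.2 CPM per kb for Il10rb, 9.15 for Tnfrsf18 and 6.59 for Il10ra. They were 2.75 CPM per kb for Il10, 2.39 for Tnfrsf4, 1.7 for Ctla4 and 0.974 for Icos. The lowest were Il2ra at 0.564, Ikzf2 at 0.217 and Foxp3 at 0.134 CPM per kb. The receptor chain Il10rb thus stood highest and the transcription factors Ikzf2 and Foxp3 lowest. In bulk skin, fewer cells of a type and less RNA per cell cannot be told apart. All 10 genes passed the minimum level of 1 CPM in at least 2 of the 11 libraries. Foxp3 passed only through repeat exposure, with 1 library of 2x and 2 of 3x at 1 CPM or more, and Icos and Il10 had no first exposure library at that level.

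Foxp3, the factor that specifies regulatory T cells (chrX:7579676-7595243, plus strand), was at 0.144 and 0.336 CPM in naive skin. After first exposure it was at 0.371, 0.298 and 0.369 CPM, in 2x skin at 0.369, 1.62 and 0.745 CPM and in 3x skin at 1.16, 1.19 and 0.165 CPM. Saliva immune skin had 1.24 CPM. Of the 6 repeat libraries, 4 lay above all 3 first exposure libraries and 1, the third 3x library, lay below them, so the groups overlapped. Repeat skin averaged 0.875 ± 0.55 CPM, against 0.346 ± 0.0418 CPM in first exposure skin (SD), a log2 fold change of 0.42 (SE 0.24) with a limma adjusted p of 0.325. Because Foxp3 passed the minimum level only through repeat libraries, tests of higher Foxp3 in repeat, 2x or 3x skin are not independent of that filter. Between 3.3 and 31.7 estimated reads stood behind each value. Foxp3 overlaps the annotated genes Flicr and Ccdc22 and only 1 of its 12 values was a whole number of reads within 0.1, so how reads were shared between these genes is unknown and its level is uncertain.

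Ikzf2 encodes Helios, a factor found in many regulatory T cells (chr1:69531207-69687351, minus strand). It was at 2.12 and 4.31 CPM in naive skin, 1.26, 0.891 and 2.93 CPM in first exposure skin, 1.28, 2.59 and 2.36 CPM in 2x skin, 4.38, 2.24 and 3.34 CPM in 3x skin and 3.82 CPM in saliva immune skin. Its order over the libraries differed from that of Foxp3. Its highest values were in the first 3x and the second naive library, and 2 of 6 repeat libraries exceeded all first exposure libraries. Its log2 fold change was 0.48 (SE 0.31, adjusted p = 0.375) for repeat over first exposure and -0.67 (SE 0.38, adjusted p = 0.409) for first exposure over naive.

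Il2ra, the alpha chain of the interleukin-2 receptor (chr2:11642792-11693194, plus strand), was at 2.14 and 2.24 CPM in naive skin, and the first exposure libraries held 2.29, 0.665 and 3.45 CPM. It was at 1.54, 6.02 and 4.23 CPM in 2x skin and 3.64, 7.16 and 2.05 CPM in 3x skin. Saliva immune skin had 10.1 CPM, the highest of the 12 libraries. Repeat and first exposure overlapped, with 4 of 6 repeat libraries above all first exposure libraries. The means were 4.11 ± 2.19 CPM in repeat skin and 2.14 ± 1.4 CPM in first exposure skin (SD), and the log2 fold change was 0.70 (SE 0.41, adjusted p = 0.334). Il2ra overlaps the predicted gene Gm39760, and 4 of its 12 values were whole numbers of reads.

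Ctla4 and Icos encode receptors of the CD28 family, and the genes lie 44940 bases apart on chromosome 1 (chr1:60909025-60915832 and chr1:60960773-61000322, both plus strand). Ctla4, the inhibitory receptor, was at 1.04 and 2.32 CPM in naive skin, 1.47, 0.334 and 3.15 CPM in first exposure skin, 1.33, 12.7 and 4.78 CPM in 2x skin, 6.72, 7.06 and 2.59 CPM in 3x skin and 4.45 CPM in saliva immune skin. Icos, the inducible costimulator, was at 1.11 and 1.68 CPM in naive skin, 0.245, 0.724 and 0.992 CPM in first exposure skin, 0.983, 14.3 and 5.09 CPM in 2x skin, 4.57, 6.36 and 0.697 CPM in 3x skin and 3.51 CPM in saliva immune skin. Both genes peaked in the second 2x library, and for both 4 of 6 repeat libraries exceeded all first exposure libraries while the first 2x and the third 3x library lay within the range of first exposure. Ctla4 averaged 5.86 ± 4.03 CPM in repeat skin, against 1.65 ± 1.42 CPM in first exposure skin, a log2 fold change of 1.30 (SE 0.54, adjusted p = 0.214). Icos averaged 5.34 ± 4.96 CPM in repeat skin, against 0.654 ± 0.379 CPM in first exposure skin, a log2 fold change of 1.58 (SE 0.61, adjusted p = 0.194). Every first exposure library had less Icos than both naive libraries, a gap that 14% of all tested genes showed, and that log2 fold change was -0.55 (SE 0.81, adjusted p = 0.747).

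Promoter windows are shown for 3 of the genes, Ctla4, Il2ra and Foxp3, which varied together over the libraries (Pearson's r of 0.82 to 0.87). Other pairs were closer, such as Foxp3 with Tnfrsf4 (0.95). The 3 windows lie outside annotated exons of protein-coding genes, and that of Foxp3 overlaps an exon of Flicr. Each is the 250 bases before the transcription start in the RefSeq promoter table of GRCm38.p6, on the plus strand, with capitals marking matches to the letters GGAAA (the core of NFAT sites, here on the opposite strand as TTTCC) or TTCNNNGAA (the STAT site).
Ctla4, chr1:60908775-60909024: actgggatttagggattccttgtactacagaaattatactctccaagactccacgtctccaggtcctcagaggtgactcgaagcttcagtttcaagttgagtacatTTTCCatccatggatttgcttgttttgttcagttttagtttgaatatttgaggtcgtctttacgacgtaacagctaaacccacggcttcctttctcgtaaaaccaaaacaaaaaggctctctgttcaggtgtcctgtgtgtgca
Il2ra, chr2:11642542-11642791: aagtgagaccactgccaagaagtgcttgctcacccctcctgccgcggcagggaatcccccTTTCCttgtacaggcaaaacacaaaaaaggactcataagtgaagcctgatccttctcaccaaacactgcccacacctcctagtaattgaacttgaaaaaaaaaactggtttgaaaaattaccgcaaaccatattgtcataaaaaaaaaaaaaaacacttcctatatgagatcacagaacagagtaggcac
Foxp3, downstream start, chrX:7580233-7580482: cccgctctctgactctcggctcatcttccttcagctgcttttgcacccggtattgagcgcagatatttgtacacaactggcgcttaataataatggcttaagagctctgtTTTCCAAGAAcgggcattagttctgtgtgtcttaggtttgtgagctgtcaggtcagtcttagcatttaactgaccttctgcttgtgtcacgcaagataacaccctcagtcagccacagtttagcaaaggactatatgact
The 3 windows each held an NFAT core, which 55.6% of all 32851 promoters of the table hold on either strand. The Foxp3 window also held the STAT letters TTCCAAGAA, 139 to 131 bases before the start and overlapping its NFAT core. TTCNNNGAA occurs in 7.02% of all promoters. The other letters searched on both strands, with their share of all promoters, were GTAAACA for forkhead factors (3.17%), TGANTCA for AP-1 (6.75%), TGACGTCA for CRE (1.55%), TGTGGT for RUNX (14%) and TATAAA for the TATA box (12.4%), and these letters were not in the 3 windows shown. The table holds a second Foxp3 window before the annotated start of the gene (chrX:7579426-7579675), which is not shown because it overlaps an exon of Foxp3. It held an NFAT core and the letters TATAAA, 32 to 27 bases before that start. A match is a run of letters, not a bound site. Tnfrsf4 and Tnfrsf18 also had entries in the table, whose windows are not shown and each held an NFAT core. The Tnfrsf18 window also held the STAT letters TTCACAGAA, 99 to 91 bases before its start. No sequence is shown for Icos, Il10, Il10ra, Il10rb and Ikzf2.

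Tnfrsf18 and Tnfrsf4 encode GITR and OX40, costimulatory receptors of the tumour necrosis factor receptor family that lie 9708 bases apart on chromosome 4 (chr4:156026322-156028894 and chr4:156013595-156016613, both plus strand). Tnfrsf4 was at 2.25 and 2.48 CPM in naive skin, 2.59, 2.79 and 2.37 CPM in first exposure skin, 2.36, 4.97 and 4.28 CPM in 2x skin, 4.92, 4.44 and 2.49 CPM in 3x skin and 4.68 CPM in saliva immune skin. Its repeat libraries fell into 4 between 4.28 and 4.97 CPM and 2 at 2.36 and 2.49 CPM, near first exposure. Its log2 fold change was 0.42 (SE 0.22, adjusted p = 0.289). Tnfrsf18 lay between 11.4 and 24.3 CPM in repeat skin and between 9.47 and 16.8 CPM in first exposure skin, with 12.9 and 14.5 CPM in naive and 16.8 CPM in saliva immune skin. The second 2x library was the highest, the groups overlapped, and the log2 fold change of 0.23 (SE 0.26, adjusted p = 0.582) was the smallest of the 10. Both overlap other annotated genes, Tnfrsf4 the gene Sdf4 and Tnfrsf18 the gene Gm16008, and all 12 values of each were whole numbers of reads.

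Il10, the cytokine itself (chr1:131019845-131024970, plus strand), had the largest ratio of highest to lowest library of the 10. It was at 6.15 and 3.12 CPM in naive skin, 0.105, 0.0558 and 0.431 CPM in first exposure skin, 2.26, 7.87 and 2.98 CPM in 2x skin, 5.01, 11.6 and 0.0997 CPM in 3x skin and 6.59 CPM in saliva immune skin. The first exposure values stood for an estimated 3, 1 and 10 reads, with exact 95% Poisson intervals of 0.0216 to 0.306, 0.00141 to 0.31 and 0.207 to 0.793 CPM that cover counting error only. All 3 first exposure libraries lay below both naive libraries, as for 14% of all genes, and 5 of 6 repeat libraries lay above all first exposure libraries. The exception was the third 3x library, at an estimated 2 reads (0.0121 to 0.36 CPM), while the interval of the next lowest repeat library began at 1.66 CPM. Repeat skin averaged 4.97 ± 4.18 CPM, against 0.197 ± 0.204 CPM in first exposure skin (SD), and the log2 fold change was 1.96 (SE 0.63) with an unadjusted p of 0.0109 and an adjusted p of 0.145. Without the third 3x library the log2 fold change was 2.37 and the adjusted p 0.0499, where 0.694% of all genes were called. The lowest value with a library left out was 1.67. First exposure over naive gave -2.19 (SE 0.86), with an unadjusted p of 0.0309 and an adjusted p of 0.256.

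Il10ra, the ligand-binding chain found mainly on leukocytes (chr9:45253837-45269149, minus strand), was at 18.3 and 16.5 CPM in naive skin, 12.7, 5.74 and 20.4 CPM in first exposure skin, 16.3, 41.6 and 30.5 CPM in 2x skin, 34.8, 42.2 and 14.4 CPM in 3x skin and 25 CPM in saliva immune skin. Il10rb, the widely expressed chain that other cytokines of the family also use (chr16:91406157-91425834, plus strand), was at 35.5 and 30.2 CPM in naive skin, 30.9, 25.2 and 47.8 CPM in first exposure skin, 44.5, 75.7 and 56.9 CPM in 2x skin, 63.4, 67.7 and 33.7 CPM in 3x skin and 47.7 CPM in saliva immune skin. For each chain 4 of 6 repeat libraries exceeded all first exposure libraries, the first 2x and the third 3x library being the exceptions. Il10ra averaged 30 ± 12.2 CPM in repeat skin, against 12.9 ± 7.31 CPM in first exposure skin, a log2 fold change of 1.19 (SE 0.42, adjusted p = 0.17). Il10rb averaged 57 ± 15.5 CPM in repeat skin, against 34.6 ± 11.7 CPM in first exposure skin, a log2 fold change of 0.70 (SE 0.26, adjusted p = 0.187). The third first exposure library was the highest of its group for both chains, and without it the log2 fold changes were 1.57 (adjusted p = 0.0472) for Il10ra and 0.95 (adjusted p = 0.0491) for Il10rb. In that setting 13.3% of all genes were called. Without the second first exposure library, the lowest of its group for both chains, they were 0.74 (adjusted p = 0.691) and 0.51 (adjusted p = 0.697).

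**Figure D1:**
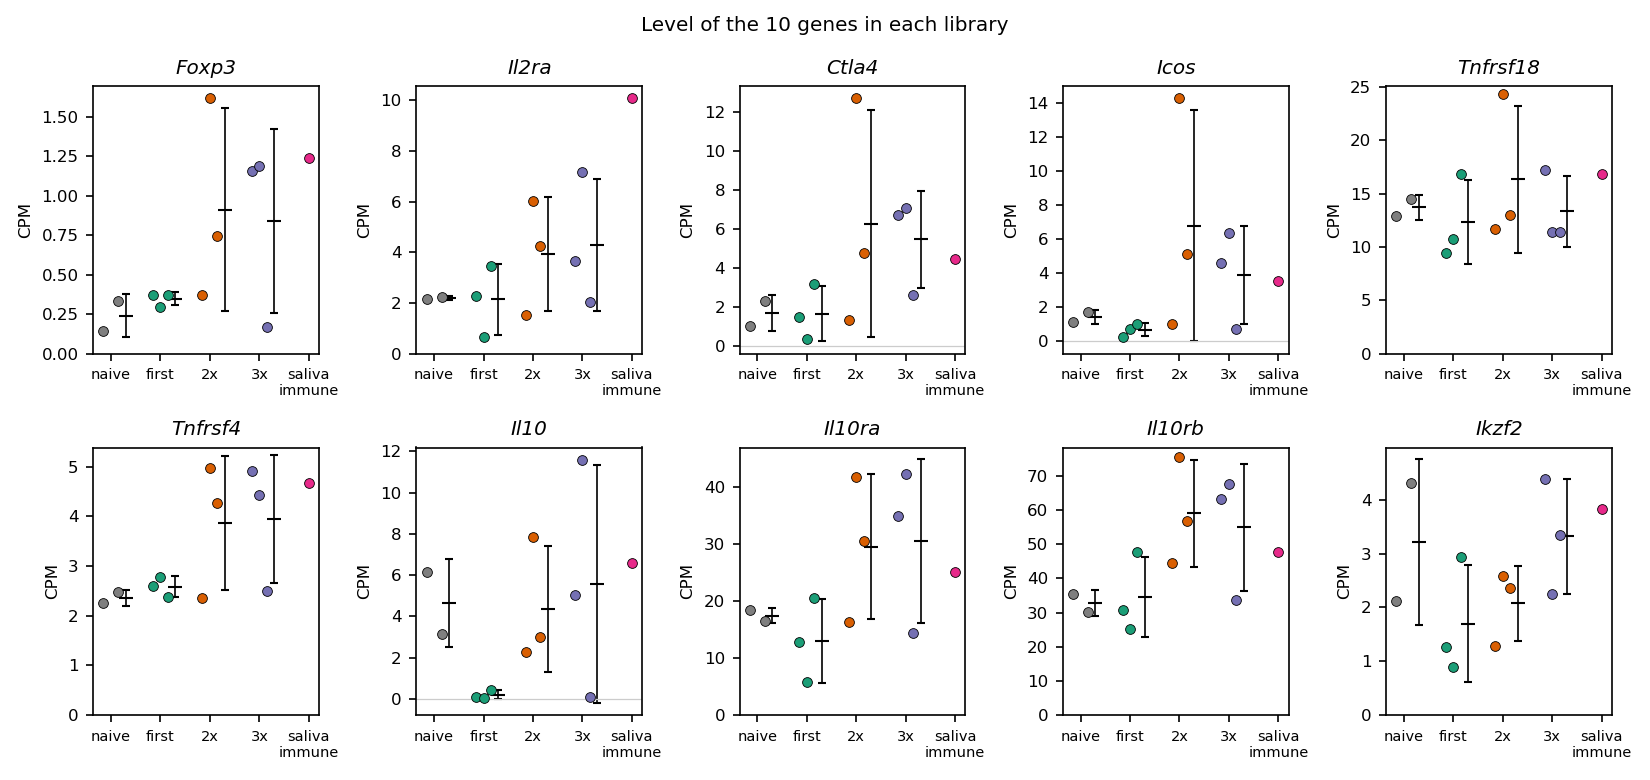
Level of each of the 10 genes in CPM (y axis, linear, 1 panel per gene) in every library of naive, first exposure, 2x, 3x and saliva immune skin (x axis); points are libraries and the bars beside them the mean ± SD. Il10 lies at or below 0.431 CPM in the 3 first exposure libraries, and the first 2x and the third 3x libraries lie near the bottom of their groups in most panels.

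The comparison of repeat with first exposure asks whether skin of mice infested before differs from skin bitten in a mouse not exposed before. All 10 log2 fold changes were above 0, from 0.23 for Tnfrsf18 to 1.96 for Il10, with a median of 0.70, against a median of -0.06 over the 17064 genes tested. None of the 10 passed limma's adjusted p of 0.05, where 0.82% of all genes did (42 higher and 98 lower in repeat skin). At an unadjusted p under 0.05 there were 5 of 10 (Il10, Il10ra, Il10rb, Icos and Ctla4), against 20.6% of all genes. With each library left out in turn all 10 stayed above 0, the lowest value being 0.08 for Tnfrsf18 without the first of the first exposure libraries. No member separated the groups, where 3.07% of all genes had every repeat library above and 5.17% every repeat library below all first exposure libraries. The same libraries lay at the ends in most genes, since the first 2x and the third 3x library were the lowest 2 repeat libraries for 8 of the 10, and the second 2x library was the highest for 6.

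Compared with naive skin, none of the 10 genes passed the threshold in any of 5 comparisons. After first exposure 7 of 10 log2 fold changes were below 0 (median -0.16, against 0.08 over all genes). None of the 10 lay above naive in every first exposure library, as 21% of all genes did, and 2, Icos and Il10, lay below naive in every one, as 14% did. Of all genes 0.0117% were called, and 1 member, Il10, had an unadjusted p under 0.05, against 16.4% of all genes. In 2x skin 8 of 10 were above 0 with a median of 0.54, against 0.01 over all genes, and 0.0352% of all genes were called. Every 2x library had more Foxp3 (log2 fold change 0.58, SE 0.33, adjusted p = 0.552) and more Il10rb (0.80, SE 0.36, adjusted p = 0.461) than both naive libraries, as did 14.7% of all genes, and no member was below naive in all of them, as 12.8% of all genes were. For Foxp3 the lowest 2x library, at 0.369 CPM (7.5 estimated reads), was close to the second naive library, at 0.336 CPM (4.2 estimated reads). Foxp3 had also passed the minimum level only through repeat libraries. In 3x skin 8 of 10 were above 0 with a median of 0.57, against 0.02 over all genes, and 0.00586% of all genes were called. Every 3x library had more Ctla4 (1.22, SE 0.73, adjusted p = 0.806) and more Tnfrsf4 (0.52, SE 0.29, adjusted p = 0.785) than both naive libraries, as did 15.5% of all genes, and no member was below naive in all of them, as 9.58% of all genes were. These comparisons share the same 2 naive libraries.

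Over all 9 bitten libraries the log2 fold changes against naive ran from -0.89 for Il10 (SE 0.74, adjusted p = 0.7) to 0.74 for Ctla4 (SE 0.62, adjusted p = 0.703), and 0.041% of all genes were called. No member had all 9 on 1 side of naive skin, where 4.02% of all genes had them above and 3.31% below. Repeat against naive stays within title series 6. There 8 of 10 were above 0, no member was beyond naive in all 6 libraries (6.41% of all genes were above and 5.29% below), and no gene of the table was called (0%), with 1592 genes and 1 member, Il10rb, at an unadjusted p under 0.05. The log2 fold change was 0.73 for Il10rb (SE 0.31, adjusted p = 0.505) and 1.17 for Ctla4 (SE 0.62, adjusted p = 0.582). It was 0.51 for Tnfrsf4 (SE 0.25, adjusted p = 0.561) and 0.55 for Foxp3 (SE 0.28, adjusted p = 0.575). The Foxp3 value is not independent of the minimum level, which that gene passed only through repeat libraries. Il10 was at -0.23 (SE 0.73, adjusted p = 0.957), and was at 0.18 without the third 3x library and at 0.16 without the first naive library.

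Skin of 3x mice and of 2x mice gave no call among the 10 or among all genes (0%, with 878 genes and no member at an unadjusted p under 0.05). The log2 fold changes of 3x over 2x ran from -0.47 for Icos (SE 0.73, adjusted p = 0.95) to 0.49 for Ikzf2 (SE 0.34, adjusted p = 0.894), with 5 of 10 above 0. The 2 groups overlapped for every member, where 7.3% of all genes were higher and 4.41% lower in every 3x library. Icos was at 0.24 without the second 2x library and at 0.17 without the third 3x library.

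**Figure D2:**
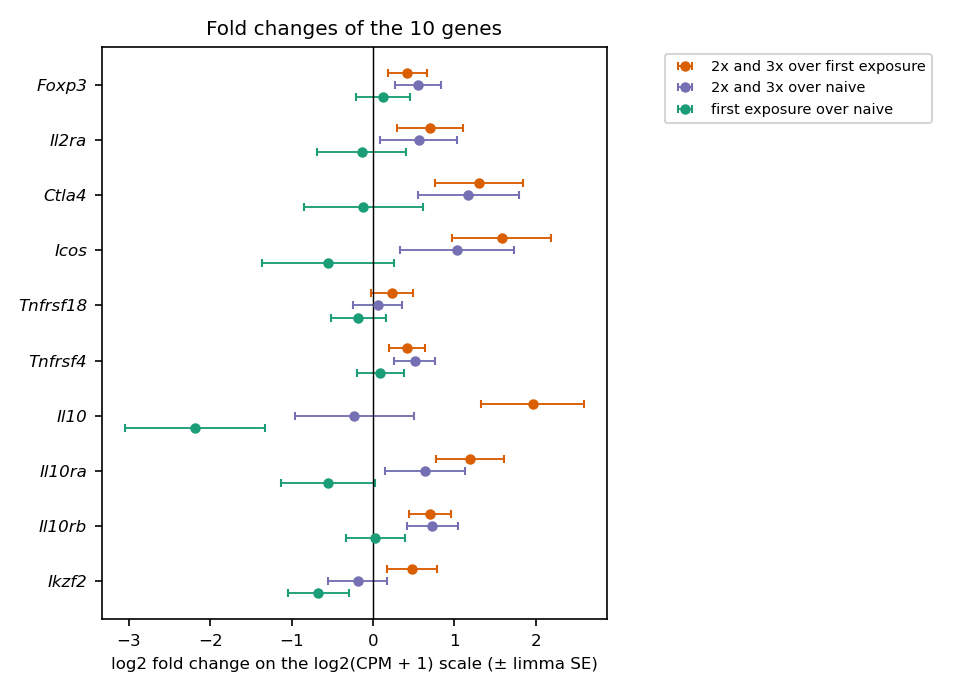
Log2 fold change on the log2(CPM + 1) scale (x axis, points with limma's SE as bars) of each of the 10 genes (y axis) for repeat (2x and 3x) over first exposure, repeat over naive and first exposure over naive. Every gene is right of 0 in repeat over first exposure, and Il10 is at -2.19 in first exposure over naive.

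Saliva immune skin was a single library with no test. It exceeded all 3 first exposure libraries for 8 of the 10 genes, as it did for 26.1% of all genes, and Tnfrsf18 and Il10rb were the exceptions. It exceeded both naive libraries for 9 of the 10, against 44.2% of all genes, with Ikzf2 as the exception. For 5 genes it was at least 1 higher than the first exposure mean on the log2(CPM + 1) scale, which 5.15% of all genes were. These were Il10 (2.68), Il2ra (1.93), Icos (1.47), Ctla4 (1.19) and Il10ra (1.05).

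The level of T cells was set beside these values. Of the 16 T cell markers, 15 were tested, and all 15 had log2 fold changes above 0 in repeat over first exposure (median 0.76). At an unadjusted p under 0.05 there were 7 of 15, against 20.6% of all genes, and none was called. Of the 11 libraries in the fit, only repeat libraries reached 1 CPM for Cd6, Cd8a and Ubash3a. The signs of these 3 are therefore not independent of the minimum level. The summed level of the 16 markers was 26.7 to 108 CPM in repeat skin and 9.92 to 50.1 CPM in first exposure skin. It was 25.2 and 29.8 CPM in naive and 66.7 CPM in saliva immune skin. Among the markers, Cd8b1 and Ubash3a were listed at 0 in at least 1 library. Cd3g and Cd3e, chains of the T cell receptor complex, had log2 fold changes of 1.02 (SE 0.54, adjusted p = 0.296) and 1.20 (SE 0.61, adjusted p = 0.282), and no adjusted p of Cd3e was under 0.05 with a library left out. Cd3g was at 1.70 (adjusted p = 0.0484) without the third first exposure library, where 13.3% of all genes were called, and at 0.26 (adjusted p = 0.873) without the second. Cd3e was at 1.93 and 0.36 in these settings. With the mean of the T cell markers as a covariate, the log2 fold changes of repeat over first exposure were -0.08 for Foxp3, -0.20 for Il2ra, -0.05 for Ctla4 and -0.28 for Tnfrsf18. They were 0.02 for Ikzf2, 0.05 for Tnfrsf4, 0.09 for Il10rb, 0.19 for Il10ra, 0.28 for Icos and 0.83 for Il10, and no adjusted p of the 10 was under 0.821.

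Foxp3, Ctla4 and Il10 were also taken relative to the mean of the T cell markers, each in log2(CPM + 1). Relative Foxp3 was -1.09 ± 0.18 in repeat skin and -0.68 ± 0.47 in first exposure skin (SD), a difference of -0.41 (2-sided exact permutation p = 0.143) that lay between -0.66 without the third and -0.19 without the second first exposure library, and all 6 repeat libraries lay between -1.27 and -0.81. This scale understates changes of a gene as low as Foxp3, so the difference does not measure a share of T cells. In plain CPM, Foxp3 averaged 0.875 in repeat and 0.346 in first exposure skin. The summed T cell markers ran from 26.7 to 108 CPM and from 9.92 to 50.1 CPM. Relative Ctla4 was 0.62 ± 0.40 in repeat skin and 0.15 ± 0.31 in first exposure skin, a difference of 0.46 (exact p = 0.119). Relative Il10 was 0.27 ± 0.90 in repeat skin and -0.86 ± 0.30 in first exposure skin, a difference of 1.12 (exact p = 0.0952), and against naive skin at 1.25 ± 0.66 the 9 bitten libraries at -0.11 ± 0.92 differed by -1.35 (exact p = 0.0727). The smallest exact p these groups allow is 0.0238 for repeat against first exposure, 0.0364 for bitten against naive and 0.0714 for repeat against naive, where a p under 0.05 cannot be reached. Leaving out 1 library brought 3 of these differences under 0.05. They were Il10 of repeat against first exposure without the third 3x library (1.43, exact p = 0.0357), Ctla4 without the first 2x library (0.60, exact p = 0.0357) and Il10 of bitten against naive without the second 3x library (-1.56, exact p = 0.0444). In each case the library left out was the only one of its group that overlapped the other group. The p was then the smallest that the remaining libraries allow. Against naive skin, relative Foxp3 differed by -0.06 over all bitten libraries (exact p = 0.655) and by -0.20 in repeat skin (exact p = 0.214), with signs that turn at smaller pseudocounts. Relative Ctla4 differed from naive skin by 0.27 over all bitten libraries (exact p = 0.436) and by 0.43 in repeat skin (exact p = 0.214), and relative Il10 in repeat skin by -0.98 (exact p = 0.143). These 9 p-values are not adjusted.

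**Figure D3:**
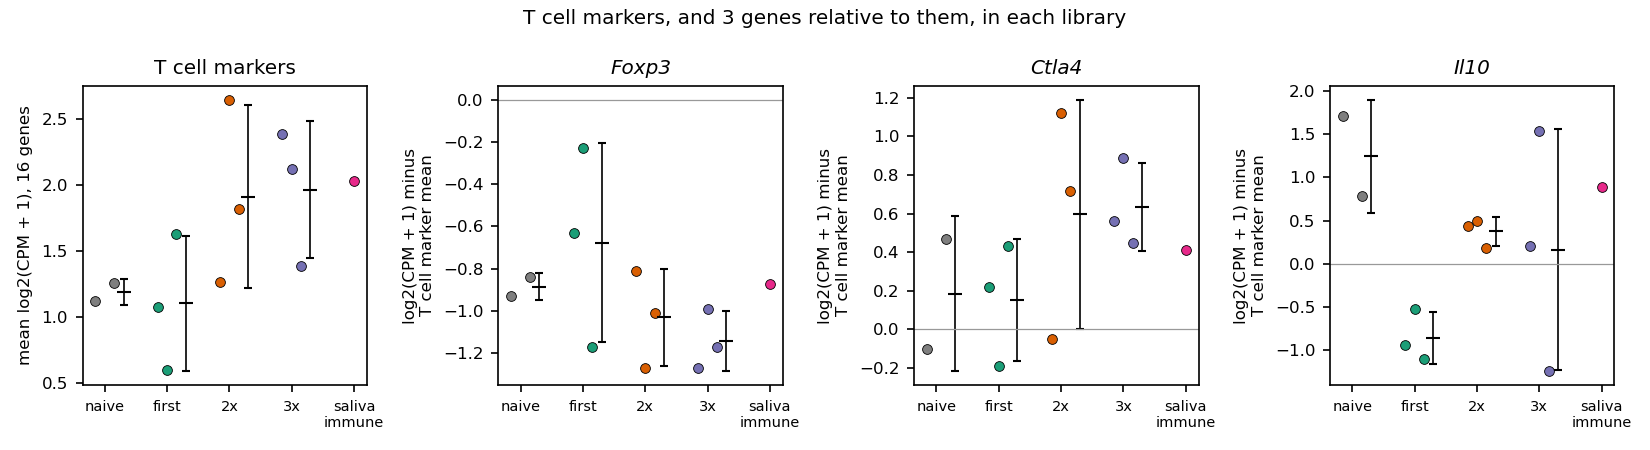
Mean log2(CPM + 1) of 16 T cell markers (left panel) and log2(CPM + 1) of Foxp3, Ctla4 and Il10 minus that mean (other panels) in each library, with mean ± SD, for naive, first exposure, 2x, 3x and saliva immune skin. Relative Il10 is below 0 in all 3 first exposure libraries and in the third 3x library, at -1.25.

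Markers of other cells also differed in the fitted level of repeat over first exposure, and their part in the results was not tested. All 12 macrophage markers had log2 fold changes above 0 (median 0.92), with a summed level of 1120 to 4050 CPM in repeat skin and 604 to 2070 CPM in first exposure skin. None was called. For mast cells and basophils 10 of 11 were above 0 (median 1.33), with a sum of 279 to 757 CPM in repeat skin and 143 to 444 CPM in first exposure skin. None was called, and Mcpt8 was listed at 0 in at least 1 repeat and 1 naive library. Of the 11 libraries in the fit, only repeat libraries reached 1 CPM for Mcpt8, so its sign is not independent of the minimum level. All 15 hair follicle markers were below 0 (median -2.74), with sums of 34 to 16500 CPM in repeat skin and 74.8 to 21800 CPM in first exposure skin, and none was called. Of 10 adipocyte markers all were above 0 (median 1.15) and 2 were called, Adipoq, which encodes the fat hormone adiponectin, and Cidec, a lipid droplet protein. Their summed level was 4420 to 9930 CPM in repeat skin and 2280 to 3600 CPM in first exposure skin. Above 0 were also all 10 dendritic and Langerhans cell markers (median 0.67, sums of 208 to 283 CPM in repeat skin and 182 to 217 CPM in first exposure skin) and all 8 markers of type 2 innate lymphoid and natural killer cells (median 0.47, 164 to 344 CPM in repeat skin and 100 to 298 CPM in first exposure skin). So were all 6 neutrophil markers tested (median 1.14, 15.2 to 481 CPM in repeat skin and 19.2 to 32.2 CPM in first exposure skin) and all 7 fibroblast markers (median 0.33). The dendritic and Langerhans sum was mostly Epcam, at 107 to 202 CPM in repeat and 122 to 163 CPM in first exposure skin (log2 fold change 0.01). The innate lymphoid and natural killer sum was mostly Rora, at 151 to 326 CPM and 92.8 to 282 CPM (0.72). In that list Ncr1 and Eomes also passed the minimum level only through repeat libraries. All 12 skeletal muscle markers were below 0 (median -1.12), with sums of 2620 to 45900 CPM in repeat skin and 15300 to 22500 CPM in first exposure skin. None of these markers was called. When the mean of the hair follicle markers entered the fit, all 10 genes of the set had log2 fold changes above 0, from 0.11 for Tnfrsf18 to 2.15 for Il10.

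Most other genes of these pathways also had log2 fold changes above 0 in repeat over first exposure, and none of them was called. Among 21 tested of 26 other regulatory T cell genes found, 17 were above 0 with a median of 0.48. Of the 21, Tigit, Tnfrsf9 and Gzmb passed the minimum level only through repeat libraries, so their signs are not independent of it. The most abundant were Gata3 (0.07, SE 0.21, adjusted p = 0.856), a factor shared with type 2 helper T cells and keratinocytes, and Capg (0.08, SE 0.22, adjusted p = 0.839), an actin-capping protein, and both turned below 0 when the second first exposure library was left out. In the interleukin-2 pathway all 11 tested of 12 were above 0 with a median of 0.60, with Jak1 at 0.36 (SE 0.27, adjusted p = 0.436) and Stat5b at 0.39 (SE 0.25, adjusted p = 0.377), a kinase and a transcription factor of the receptor's signal. In the IL-10 family and its signalling 9 of 10 tested, of 14 found, were above 0 with a median of 0.80. Stat3, the main factor downstream of the IL-10 receptor, averaged 218 ± 63.2 CPM in repeat skin and 137 ± 53.7 CPM in first exposure skin (0.68, SE 0.28, adjusted p = 0.217), and Maf, a factor that promotes Il10 transcription in T cells, was at 0.12 (SE 0.24, adjusted p = 0.768).

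Among costimulation partners and checkpoints 11 of 12 tested, of 15 found, were above 0 with a median of 0.72. Of the 12, Cd27 and Pdcd1lg2 passed the minimum level only through repeat libraries, so their signs are not independent of it. Cd274, the checkpoint ligand PD-L1, averaged 19.8 ± 10.5 CPM in repeat skin and 6.34 ± 2.51 CPM in first exposure skin (1.37, SE 0.48, adjusted p = 0.168). Icosl, the ligand of Icos, averaged 15.6 ± 4.33 CPM in repeat skin and 17.1 ± 4.39 CPM in first exposure skin (-0.13, SE 0.23, adjusted p = 0.743). Ligands, receptors and Smad signal proteins of TGF-beta, a cytokine that induces Foxp3, gave 6 of 10 above 0 and a median of 0.09. Smad2, Smad3, Smad4 and Smad7 were at -0.24, -0.32, 0.05 and -0.70. Tgfb1, Tgfb2, Tgfb3 and Tgfbr1 were at 0.65, 0.14, 0.31 and -0.12. Tgfbr2, a receptor chain for TGF-beta, was at 0.48 (SE 0.37, adjusted p = 0.446) and the co-receptor Tgfbr3 at 0.67 (SE 0.25, adjusted p = 0.184). Without the third first exposure library Jak1 (0.75, adjusted p = 0.0481), Stat3 (0.98, adjusted p = 0.0493) and Tgfbr3 (1.01, adjusted p = 0.0237) passed the threshold, as did 2260 genes of the table in place of 140. Without the second first exposure library they were at 0.07, 0.45 and 0.37, with adjusted p of 0.944, 0.745 and 0.719.

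Over the 12 libraries the 45 pairs of the 10 genes had Pearson's r of log2(CPM + 1) between 0.33 and 0.95, with a median of 0.74. These are descriptions of libraries that share groups, depth and tissue make-up. The closest pairs were Foxp3 with Tnfrsf4 (0.95), Il10ra with Il10rb (0.94) and Ctla4 with Il10ra (0.92). Ikzf2 was the least like the others, with a median r of 0.39, followed by Tnfrsf18 at 0.61 and Il10 at 0.69.

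**Figure D4:**
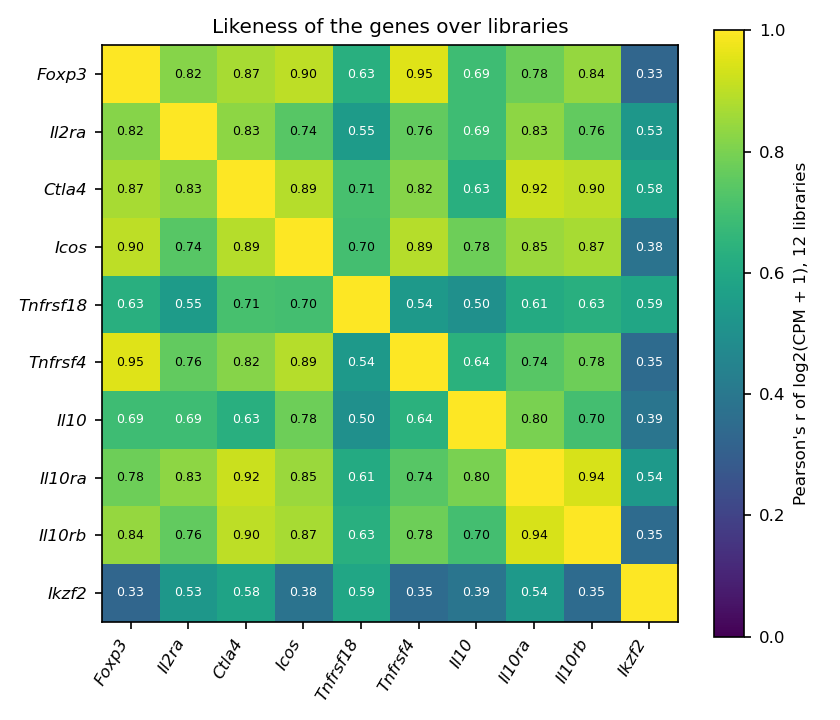
Pearson's r of log2(CPM + 1) over 12 libraries for each pair of the 10 genes (both axes), printed in each cell and coloured from 0 to 1. The row of Ikzf2 is the darkest, from 0.33 with Foxp3 to 0.59 with Tnfrsf18.

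Over the same 12 libraries, the genes of the table most like Foxp3 were Cd5 (r = 0.967), a surface receptor of T cells, Pdcd1lg2 (0.960), the checkpoint ligand PD-L2, Gpr55 (0.960), a lipid receptor, Clcn5 (0.954), an endosomal chloride exchanger, and Tnfrsf4 (0.953), out of 14549 ranked. Those most like Il10 were Gfpt1 (0.957), which starts hexosamine synthesis, Gfra2 (0.943), a receptor for neurturin, Gpr183 (0.928), an oxysterol receptor that guides immune cells, Mesdc1 (0.925) and Lif (0.921), a cytokine of the interleukin-6 family. The mean of the 10 genes was most like Csf2rb (0.989), the shared chain of the receptors for interleukin-3, interleukin-5 and GM-CSF, and Csf2rb2 (0.982), its close paralog, so reads may be split between them. Cyp7b1 (0.978), which hydroxylates oxysterols, and Vav1 (0.976), a signalling protein of leukocytes, were also among the most alike.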

How the data were processed

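RNA sequencing of 12 mouse skin libraries was taken from 1 deposited table of CPM with 25070 genes, in which every cell carries an offset of 0.0001 from the authors. The submitters' processing notes name STAR, Partek 8.0.19 and the build GRCm38.p6. The counting program, the strandedness and the annotation were not given in the sources used here. A Qiagen RNeasy kit isolated the RNA, per the labels' protocols. Library size was estimated from the step between low CPM values, of which 73.4% to 79.3% per library were whole reads within 0.02, too few for a count test. The CPM columns summed to between 998572 and 998966, and 0 columns were left without a sample.

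The 17064 genes that reached 1 CPM in 2 or more of 11 libraries were compared on log2(CPM + 1) with limma 3.58.1 in R 4.3.3 (trend in the prior variance), with Benjamini-Hochberg adjustment over all of them and a threshold of 0.05. Fold changes on this scale understate changes of low genes. A fit of 4 groups (7 residual degrees of freedom) gave the comparisons of single groups and of all bitten groups with naive, and a fit with 2x and 3x pooled (8 residual degrees of freedom) gave those of repeat exposure. Saliva immune skin was left out of the fits. Foxp3, Ctla4 and Il10 relative to T cell markers were compared by exact permutation over libraries. The fit was tested on simulated data with known changes. Levels are means ± SD, and intervals are exact Poisson intervals on estimated reads.

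The 10 genes and the lists were chosen with earlier results of these data known. Of 236 genes in 21 lists, 231 were counted as found. The B cell marker Ms4a1 was matched through a gene synonym to Ms4a2, a gene of the mast cell and basophil list. Named were the 10 genes, the 2 most abundant genes of each list of pathway genes and T cell markers described (none was called), and the 5 genes most like Foxp3, Il10 and the mean of the 10, leaving out predicted genes and receptor segments, of which 1 is not reported here. Alternatives were pseudocounts of 0.5 and 0.1, median-of-ratios scaling, no filter or a minimum of 5 CPM, fits with only the groups compared, robust moderation, the mean of the hair follicle or T cell markers as a covariate, Cd3e as the T cell level, and each library left out in turn. Positions and promoter sequences are from RefSeq on GRCm38.p6. Software for tables and figures was Python 3.11.15, scipy 1.17.1, pandas 2.3.3, matplotlib 3.10.9 and numpy 2.4.6.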

Additional observations from a re-analysis of the deposited data

Results flagged for a closer look

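The single saliva immune library, which enters no test, exceeded both naive libraries for 9 of the 10 genes, as it did for 44.2% of all genes tested. Foxp3 was at 1.24 CPM, against 0.144 and 0.336 CPM in naive skin, and Il2ra at 10.1 CPM, against 2.14 and 2.24 CPM. Ctla4 was at 4.45 CPM, against 1.04 and 2.32 CPM in naive skin, and Icos at 3.51 CPM, against 1.11 and 1.68 CPM. Tnfrsf18 was at 16.8 CPM, against 12.9 and 14.5 CPM in naive skin, and Tnfrsf4 at 4.68 CPM, against 2.25 and 2.48 CPM. Il10 was at 6.59 CPM, against 6.15 and 3.12 CPM in naive skin. Il10ra was at 25 CPM, against 18.3 and 16.5 CPM, and Il10rb at 47.7 CPM, against 35.5 and 30.2 CPM. The interval of Il10 in saliva immune skin (5.63 to 7.66 CPM, counting error only) overlapped that of the first naive library (5.29 to 7.1 CPM). Ikzf2, at 3.82 CPM, lay between the naive libraries at 2.12 and 4.31 CPM. The summed T cell markers were at 66.7 CPM in this library, against 25.2 and 29.8 CPM in naive skin. In 26 checks of groups of 4 or more libraries, no library was flagged by its gap to the next library over the group's range. The values checked were on the log2(CPM + 1) scale. In CPM, Il10 of the third 3x library was at 0.0997, against 2.26 in the next lowest repeat library.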

How the results depend on the processing

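With the other settings for filter, pseudocount, scaling, fit, moderation and covariate, no member was called in any of the 7 comparisons. The number called in repeat over first exposure was 0 to 2 with each library left out. Genes called over the table moved more. First exposure over naive gave 2, and 9 at pseudocounts 0.5 and 0.1, without a filter and with robust moderation, 8 at 5 CPM, 26 with median-of-ratios scaling, 48 with the T cell covariate and 0 to 600 with each library left out. For 2x over naive 6 became 11 without a filter, 3 at 5 CPM, 0 with only the groups compared or the T cell covariate, and 0 to 5 leaving out libraries. For 3x over naive 1 became 5 without a filter, 0 with only the groups compared or the T cell covariate, and 0 to 1. For bitten over naive 7 became 3 at both pseudocounts, at 5 CPM and with the hair follicle covariate, 4 with only the groups compared, 2 with the T cell covariate, and 0 to 8. Repeat over naive gave 0, 8 without a filter and 0 to 6. Repeat over first exposure gave 140, 50 at pseudocount 0.1, 259 without a filter, 7 at 5 CPM, 83 with only the groups compared, 43 and 0 with the hair follicle and T cell covariates, and 0 to 2260. For 3x over 2x 0 became 0 to 1. The cause was not tested.

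Relative to T cells, Foxp3 of bitten over naive turned to 0.03 and 0.28 at pseudocounts 0.5 and 0.1, and of repeat over naive to 0.10 at 0.1. With each library left out, Il10 lay at 0.87 to 1.43 (repeat over first exposure) and -1.82 to -0.89 (bitten over naive), and Ctla4 at 0.29 to 0.60 and -0.01 to 0.56. Of 40 log2 fold changes recomputed, 14 turned with the T cell covariate: Ctla4 to -0.03, -0.01 and -0.03 against naive (3x, bitten, repeat) and, in repeat over first exposure, Foxp3 to -0.08, Il2ra to -0.20, Ctla4 to -0.05, Tnfrsf18 to -0.28, Gata3 to -0.34, Capg to -0.24, Jak1 to -0.23, Stat3 to -0.01, Maf to -0.07, Icosl to 0.06 and Tgfbr2 to -0.35. Icosl turned to 0.04 with the hair follicle covariate. With libraries left out, ranges spanned 0 for Il10 of repeat over naive (-0.63 to 0.18), Icos of 3x over 2x (-1.23 to 0.24), Gata3 (-0.07 to 0.30) and Capg (-0.07 to 0.28).

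At pseudocount 0.1 the log2 fold change of repeat over first exposure was 3.53 for Il10, 0.87 for Foxp3 and 2.38 for Icos. At 5 CPM, 9 of the 40 could not be fitted because their genes fell under the minimum. Scaling moved the median of all genes by at most 0.08. The test planned for genes under the minimum level had no member. Groups of 2 and 3 libraries, a depth at which Foxp3 has few reads, and the tie of first exposure to 1 title series limit these comparisons. No paired analysis was possible because the labels number no replicates across groups.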

Other observations

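The genes in this part were chosen after their values were seen. Areg encodes amphiregulin, a growth factor that regulatory T cells and other cells make in injured tissue. It was at 8.49 to 12.9 CPM after first exposure, 5.52 to 14.4 CPM in repeat skin and 3.7 CPM in saliva immune skin, against 32.1 and 33.6 CPM in naive skin. Every bitten library lay below both naive libraries, as for 3.31% of all genes tested. The log2 fold change of bitten over naive was -1.62 (SE 0.36) with a limma adjusted p of 0.209, and lay between -1.72 and -1.49 with each library left out in turn.

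Pdcd1lg2, which encodes the checkpoint ligand PD-L2 of dendritic cells and macrophages, ranged from 0.249 to 13.4 CPM in repeat skin and from 0 as listed to 0.82 CPM in first exposure skin, with 0.202 and 0.32 CPM in naive skin and 13.6 CPM in saliva immune skin. It was at 13.4, 6.77, 7.88 and 9.12 CPM in 4 repeat libraries and at 0.344 and 0.249 CPM in the first 2x and the third 3x library. The log2 fold change of repeat over first exposure was 1.96 (SE 0.78, adjusted p = 0.201), and 0.17 with the T cell covariate. Of the 11 libraries in the fit, only repeat libraries reached 1 CPM for Pdcd1lg2, so this test is not independent of the minimum level.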
